A study of Mus musculus with 16 samples.

Results

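The small nucleolar RNAs (snoRNAs) of the mouse hippocampus were taken as every gene row whose symbol begins with Snora or Snord followed by a number. The rule found 110 members among 24972 gene rows. They comprised 36 Snora genes, whose products belong to the box H/ACA class, and 74 Snord genes, of the box C/D class. Bulk RNA-seq libraries had been made from microdissected dorsal CA1, CA3 and dentate gyrus (DG) of adult ArcCreERT2::eYFPflx mice on a C57BL/6 background, aged 3 to 4 months. All animals carried the tamoxifen-inducible Cre driven by Arc and the floxed eYFP reporter, so the transgenes did not differ between the groups. The trained group had learned active place avoidance on a rotating arena with a shock zone, and the untrained group had been on the same arena with the shock off. Tissue was collected 60 min after a retention test without shock, and the pieces of each subregion were pooled within an animal. There were 3 trained and 3 untrained libraries of CA1, and 3 trained and 2 untrained libraries each of CA3 and DG. By the labels the 16 libraries came from 3 trained and 3 untrained animals, so that libraries of different subregions can share an animal.

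SnoRNAs work in the nucleolus and in related nuclear bodies as ribonucleoproteins. Box C/D snoRNAs carry a C box and a D box, bind fibrillarin (Fbl) with Nop56 and Nop58, and mostly guide 2'-O-methylation of ribosomal RNA. Box H/ACA snoRNAs fold into hairpins joined by an H box, end shortly after an ACA triplet, bind dyskerin (Dkc1), and mostly guide the conversion of uridine to pseudouridine. A few, among them the U8 RNA (Snord118), U22 (Snord22) and U14 (the Snord14 genes), are needed for cleavage of the ribosomal RNA precursor. In mammals most snoRNAs are released from introns of a host gene after splicing and have no poly(A) tail.

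The sequences below show the length range and the boxes of members that the results turn on, as GENCODE M21 transcripts on GRCm38, written 5′ to 3′. Capitals mark TGATGA (C box) and CTGA (D box) in the box C/D members, and ANANNA (H box) and ACA in the box H/ACA members, searched on the RNA strand alone. Snora78 (chr17:24719676-24719803, minus strand, within Snhg9, with no H box found) and Snora28 (chr12:111540941-111541067, plus strand, within Eif5) are box H/ACA. Snord47 (chr1:161038082-161038158, plus strand, within Gas5) and Snord12 (chr2:167065276-167065365, plus strand, within Zfas1) are short box C/D members. Snord67 (chr2:91596070-91596180, plus strand, within Ckap5), Snord15b (chr7:99479563-99479707, minus strand, within Rps3) and Snord118 (chr11:69073427-69073561, plus strand, with no spanning gene and no C box in the window searched) are longer ones.
Snora78: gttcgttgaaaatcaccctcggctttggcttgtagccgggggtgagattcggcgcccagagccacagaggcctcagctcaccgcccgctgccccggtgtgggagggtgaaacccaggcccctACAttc
Snora28: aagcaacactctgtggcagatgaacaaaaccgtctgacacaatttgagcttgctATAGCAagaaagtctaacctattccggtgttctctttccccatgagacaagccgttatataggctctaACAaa
Snord47: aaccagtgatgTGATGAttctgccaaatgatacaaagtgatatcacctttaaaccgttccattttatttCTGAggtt
Snord12: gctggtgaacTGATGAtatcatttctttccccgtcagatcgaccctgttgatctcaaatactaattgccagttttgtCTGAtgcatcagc
Snord67: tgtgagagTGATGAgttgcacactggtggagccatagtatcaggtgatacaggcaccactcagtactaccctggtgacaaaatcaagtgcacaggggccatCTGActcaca
Snord15b: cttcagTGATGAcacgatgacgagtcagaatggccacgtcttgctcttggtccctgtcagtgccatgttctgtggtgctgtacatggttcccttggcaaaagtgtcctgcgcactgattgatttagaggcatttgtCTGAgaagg
Snord118: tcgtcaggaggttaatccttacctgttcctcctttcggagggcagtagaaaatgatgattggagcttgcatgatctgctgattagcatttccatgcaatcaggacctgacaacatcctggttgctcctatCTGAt

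The annotation held 109 of the 110 members, all but Snord116. A TGATGA in the first 25 bases together with a CTGA in the last 25 bases was found in 45 of 73 Snord sequences (61.6%) and in 0 of 36 Snora sequences. An ANANNA at 40% to 60% of the length together with an ACA in the last 8 bases was found in 30 of 36 Snora sequences (83.3%) and in 1 of 73 Snord sequences (1.37%). Over all 1507 snoRNA transcripts of the annotation the shares were 20.7% for the C/D pair and 36.8% for the H/ACA pair. Snora members were 121 to 196 bases long with a median of 132, and Snord members 64 to 238 bases with a median of 80. A gene of the same strand spanned 105 members, and 77 distinct genes served as hosts. For 46 members every run of 31 bases also occurred in an annotated transcript of the host, so reads of that transcript and reads of the snoRNA could not be told apart by sequence there. An unspliced host transcript holds the sequence of each of the 105 members it spans.

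Each library's deposited values, normalized estimated counts, summed to between 7.61e+06 and 7.98e+06. From the spacing of the low values the libraries were approximated to hold 2533000 (trained CA1 replicate 3) to 14848000 reads (trained CA3 replicate 3), so that a value of 10 stood for about 3.19 reads in the former and 19.1 in the latter. The markers of their neurons separated the labelled subregions only in part. Prox1, a transcription factor of dentate granule cells, lay between 2690 and 4786 in all 16 libraries. The summed CA1 pyramidal markers Wfs1, Fibcd1, Pou3f1 and Mpped1 were at 3079 to 4998 in untrained CA1, above untrained CA3 (876 to 1259) and untrained DG (1622 to 1690), but at 1528 to 1943 in trained CA1, within the range of 1295 to 2010 seen in trained DG. The summed CA3 markers were at 1394 to 2654 in trained CA3 and at 1682 to 1976 in trained DG. Subregion names below are therefore those of the labels. Xist lay at 7601 to 19592 in the trained libraries and at 25.5 to 52.4 in the untrained ones, except untrained CA3 replicate 1 at 10588. The Y-linked Ddx3y lay at 448 to 553 in the other 6 untrained libraries and at 1.66 to 12.9 in 5 trained ones. It was at 201 in untrained CA3 replicate 1, 255 in trained DG replicate 3, 92.9 in trained CA3 replicate 3, and 70.9 and 101 in trained CA1 replicates 1 and 3, so that these 5 libraries held Y-linked transcripts beside high Xist although each is labelled as 1 animal. Sex-linked transcripts and training thus cannot be told apart in nearly all libraries, although both sexes were in both groups by the study's methods. Libraries of one labelled animal also differed. In CA1, CA3 and DG, Xist was at 26.1, 10588 and 25.5 for untrained animal 1, and Ddx3y at 70.9, 12.9 and 1.83 for trained animal 1. Where an animal is left out or used as a block below, the animal is that of the label.

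Among the 110 members, 97 were above 0 in at least 1 library and 38 in every library. The mean over the 16 libraries was at least 100 for 17 members, and the 3 highest members made up 45.2% of the summed means. Snord15b, 1 of 2 box C/D snoRNAs within the ribosomal protein gene Rps3, was highest with a mean of 1743. However, Snord22 was above it in untrained CA1 replicates 1 and 2, and Snord104 in trained CA1 replicates 1 and 3. Snord22 (U22) followed with a mean of 1309 and Snord17 with 737, then Snord104 (649) and Snora74a (567), the highest of the box H/ACA class. Per kilobase of annotated length the order changed, with Snord15b at 12019, Snord22 at 10392, Snord104 at 9268 and Snord17 at 3095. Among the Snora members Snora81 (406), Snora23 (171), Snora7a (147), Snora44 (134) and Snora28 (118) came next. Snord47 (207) and Snord15a (184) completed the 6 highest Snord means. The spread over the libraries was wide, and neighbours in this order overlapped in their ranges. Snord15b and Snord22 are among the members whose whole sequence also occurred in annotated transcripts of the host, Rps3 and Snhg1 respectively. Their values can therefore include reads of these transcripts, and how far they do was not tested.

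On average trained CA1 had the fewest Snora (3.67 ± 1.53, SD, n = 3) and Snord members at 0 (22.3 ± 1.53) while having the most genes at 0 (8820.3 ± 813). A value of exactly 0 was listed for 8323, 8379 and 9759 of the 24972 genes in trained CA1, but for only 2, 4 and 5 of the 36 Snora members and 21, 22 and 24 of the 74 Snord members. In untrained CA1 there were 5425, 3124 and 4774 genes at 0, with 7, 4 and 6 Snora and 26, 19 and 31 Snord members. Genes and members were both often at 0 in untrained DG, where 8636 and 7567 genes went with 20 and 10 Snora and 49 and 38 Snord members. The first of these 2 libraries was approximated at 3004000 reads.

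In trained DG, 3479, 5944 and 3944 genes were at 0, beside 4, 7 and 5 Snora and 26, 33 and 32 Snord members. Untrained CA3 had 5659 and 3578 genes at 0, with 6 and 5 Snora and 39 and 25 Snord members. In trained CA3, 8692, 8009 and 3171 genes at 0 went with 6, 4 and 5 Snora and with 27, 27 and 24 Snord members, so that the 3 libraries had nearly the same number of snoRNAs at 0 although the number of genes at 0 differed between them. The libraries fell into 9 with 3124 to 5944 genes at 0 and 7 with 7567 to 9759. No correlation was taken over them, because of these clusters and because several shared an animal. In CA1 every untrained library was in the cluster with few genes at 0 and every trained one in the other, and in DG the reverse. Training and cluster thus cannot be told apart within CA1 or within DG.

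**Figure D1:**
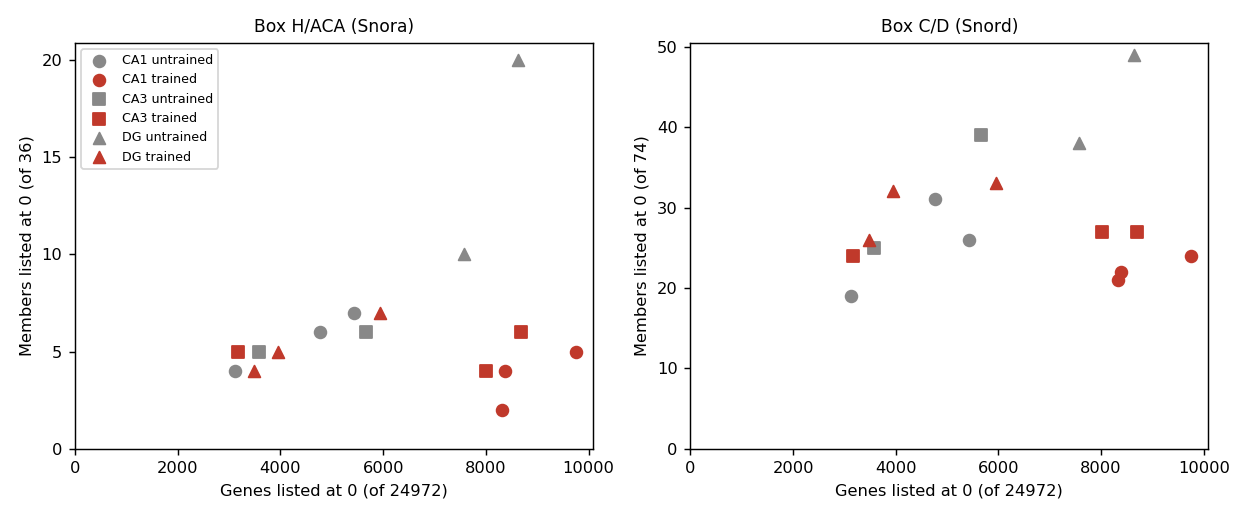
Number of Snora members (left, of 36) and Snord members (right, of 74) listed at 0 against the number of all genes listed at 0, one point per library, coloured by training and shaped by labelled subregion. The 3 trained CA1 libraries have 8323 to 9759 genes at 0 but 2 to 5 Snora members, and the 2 untrained DG libraries have 7567 and 8636 genes at 0 with 10 and 20 Snora members.

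The summed Snora value was 2402, 2689 and 1225 in untrained CA1 and 5022, 3249 and 3444 in trained CA1. All trained CA1 libraries were above all untrained ones, and the means were 2105 ± 776 (SD, n = 3) and 3905 ± 972 (SD, n = 3). In CA3 the sums were 1188 and 1568 without and 2575, 2025 and 1569 with training, the lowest trained library being level with the higher untrained one. In DG they were 749 and 1108 without and 1881, 1677 and 1755 with training, with no overlap. The Snord sum in CA1 was 8342, 10238 and 3483 in untrained and 14585, 8677 and 11685 in trained libraries, and the groups overlapped. It rests largely on Snord15b, Snord22 and Snord17, and without these 3 its log2 difference in CA1 went from 0.77 to 1.82. The classes were not tested against each other. It was 2696 and 5164 against 7074, 4854 and 4392 in CA3, again with overlap, and 1919 and 3170.4 against 5329.8, 4163 and 4211 in DG, without. All members together made up 0.0339% to 0.249% of a library's summed value, lowest in untrained DG replicate 1 and highest in trained CA1 replicate 1.

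**Figure D2:**
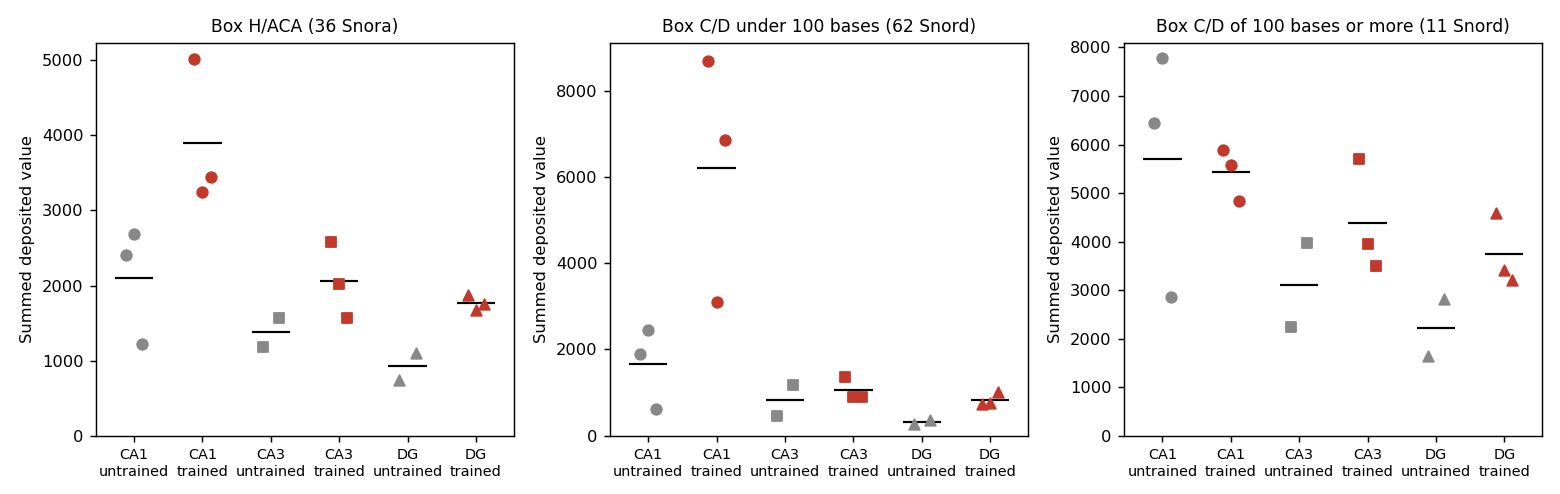
Summed deposited value per library (points; horizontal lines are group means) of the 36 Snora members, the 62 Snord members under 100 bases and the 11 Snord members of 100 bases or more, by labelled subregion and training. Snord members under 100 bases reach 8690.4 and 6851 in 2 trained CA1 libraries, against at most 2448 in untrained CA1, while the longer ones overlap between trained and untrained CA1.

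Training was compared first within CA1. Of the 110 members, 61 passed the filter (a value of at least 10 in at least 3 libraries), and 13 had an adjusted p-value under 0.05 by limma, all 13 higher in trained CA1 and 0 lower. Among all 13588 genes tested, 3.53% were called higher. The 13 comprised 7 Snora and 6 Snord members. Of the 61, 4 were under 10 in every untrained library and passed the filter only through the trained ones, 3 of them among the 13. Every trained library lay above every untrained one for 37 of the 61 members, against 12.9% of all genes tested. The 61 include the 4 that passed only through trained CA1, whose direction largely follows from the filter. The summed choroid plexus markers Ttr, Folr1, Kcnj13 and Clic6 were at 845, 933 and 671 in untrained and at 2107, 74.3 and 68.3 in trained CA1. Other sums did not overlap between untrained and trained CA1, with 3079 to 4998 against 1528 to 1943 for CA1 pyramidal cells, 877 to 1242 against 1252 to 1452 for CA3 pyramidal cells, 476 to 479 against 521 to 560 for endothelium and 8128 to 8410 against 7726 to 8012 for astrocytes. The part of these markers in the calls was not tested. In bulk tissue, fewer cells of a type and less RNA per cell cannot be told apart.

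Snora3, encoded within the ribosomal protein gene Rpl27a, had values of 16.1, 26.7 and 17.9 in untrained and 83.5, 53.7 and 68.9 in trained CA1. The log2 fold change was 1.68 (SE 0.26, limma adjusted p = 0.000591), and the groups were far apart. Snora65, within Rpl12, was at 14.8, 8.56 and 11.02 and then 85.4, 33.2 and 58.5, a log2 fold change of 2.11 (SE 0.34, limma adjusted p = 0.000789). Snora30, within the chromatin remodeller gene Srcap, was at 13.4, 13.8 and 9.9 in untrained CA1. It reached 82.5, 34.5 and 42.6 in trained CA1, a log2 fold change of 1.86 (SE 0.33, limma adjusted p = 0.00191). For these 3 members the lowest trained value was above the highest untrained one by a clear margin.

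Snora78 had values of 38.7, 51.3 and 24.4 in untrained and 192, 127 and 96.1 in trained CA1, a log2 fold change of 1.81 (SE 0.29, limma adjusted p = 0.00297). Snord87, within Snhg6, rose by 2.30 on the log2 scale (SE 0.43, limma adjusted p = 0.00289), from 9.74, 8.97 and 2.48 to 51.9, 23.7 and 47.6. It passed the filter only through trained CA1. Snora47, within Zbed3, was at 8.12, 24.3 and 9.35 in untrained CA1 and at 77.1, 44.0 and 42.4 in trained CA1, with a log2 fold change of 1.91 (SE 0.36, limma adjusted p = 0.00385).

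The members of highest value did not pass in CA1, apart from Snora23, a box H/ACA snoRNA within Ipo7 (log2 fold change 0.62, SE 0.14, limma adjusted p = 0.0133). Snord22 was at 2742, 3349 and 745 in untrained CA1 and at 1719, 1621 and 1503 in trained CA1, so the trained values lay inside the untrained range. Snord15b was at 2319.9, 2880.2 and 1239 and then at 2109, 2227 and 1719.7, also inside it. Snord47 was higher in every trained library (962, 323 and 887 against 174, 232 and 45.2), but the spread was as wide as the difference, and its log2 fold change of 2.39 (SE 0.85) had a limma adjusted p of 0.255. The count of 13 was 6 without trained CA1 replicate 1, 8 without trained replicate 3 and 8 without untrained replicate 1. It was 21 without untrained CA1 replicate 2, and without untrained replicate 3 it was 17, of which Snord22 and Snora15 were lower in trained CA1. It was 26 with no filter on low values, 28 without robust estimation and 5 when every library had to reach 10.

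In CA3, 45 members passed the filter and 1 was called, against 0.737% of the 13848 genes tested called higher. That member was Snora78, at 17.3 and 26.6 in untrained and 87.2, 59.1 and 54.2 in trained CA3. Its log2 fold change was 1.52 (SE 0.26, limma adjusted p = 0.0306). Snord118, the U8 RNA, was at 45.6 and 64.9 against 144, 111 and 85.7, also without overlap, but did not pass (log2 fold change 1.0, SE 0.23, limma adjusted p = 0.0816). Of the 45, 2 were under 10 in both untrained libraries, Snora30 among them. Every trained library lay above every untrained one for 10 of 19 Snora members and 3 of 26 Snord members, against 17.2% of all genes tested, and for none was it the reverse. The same choroid plexus sum was at 621 and 906 in untrained CA3 and at 74.8, 77.6 and 90.9 in trained CA3. The summed leptomeningeal markers Dcn and Col1a2 were at 132 and 184 and then at 83.2, 117 and 114. The astrocyte sum was at 8667 and 7714 and then at 7707, 6974 and 7185. The part of these cell types was not tested. With the robust option off, the limma adjusted p of Snora78 was 0.0507. Without trained CA3 replicate 2 or without untrained CA3 replicate 1 the single call was lost, without trained replicate 3 there were 3 calls, without untrained replicate 2 there were 2, and blocking on the replicate number gave 7.

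In DG, 44 members passed the filter and 18 were called, all 18 higher in trained DG, against 1.74% of the 13935 genes tested. They were 7 Snora and 11 Snord members. Of the 44, 12 were under 10 in both untrained libraries and passed the filter only through the trained ones, 4 of them among the 18. The summed endothelial markers Cldn5, Flt1 and Pecam1 were at 504 and 411 in untrained DG and at 267, 263 and 253 in trained DG. The summed granule cell markers were at 7151 and 7668 and then at 6260, 6187 and 5910.04, and the CA3 pyramidal ones at 1342 and 1193 and then at 1682, 1976 and 1801. The oligodendrocyte sum was at 12751 and 16074 and then at 11912.5, 11065 and 11988. The part of these cell types in the counts was not tested. Every trained library lay above every untrained one for 31 of the 44, against 17.5% of all genes tested. The 44 include the 12 that passed only through trained DG, whose direction largely follows from the filter.

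Snora28 was at 27.3 and 22.4 in untrained DG and at 100.5, 93.1 and 101 in trained DG, a log2 fold change of 1.90 (SE 0.21, limma adjusted p = 0.00027). Snora44, 1 of 4 members within Snhg12, was at 31.5 and 25.2 and then at 135, 87.9 and 149, a log2 fold change of 2.03 (SE 0.24, limma adjusted p = 0.000346). For both, every trained library was far above either untrained one. Snord16a, within Rpl4, was at 14.4 and 11.1 and then at 60.8, 60.1 and 67.6 (log2 fold change 2.14, SE 0.27, limma adjusted p = 0.000596). Snord118 was at 24.0 and 27.5 in untrained and 76.5, 84.9 and 80.4 in trained DG (log2 fold change 1.58, SE 0.22, limma adjusted p = 0.00149). U8 is required for maturation of the 5.8S and 28S ribosomal RNAs.

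Snora74a, the box H/ACA member of highest value, was at 286 and 363 in untrained and 640.3, 547 and 565 in trained DG, a smaller log2 fold change of 0.85 (SE 0.11, limma adjusted p = 0.000816). Snord12, a short member within Zfas1, rose by 2.71 on the log2 scale (SE 0.41, limma adjusted p = 0.00279), from 2.34 and 3.96 to 25.9, 35.6 and 32.9. It passed the filter only through trained DG. Snord22 was far higher in trained DG (1465, 808 and 982 against 230.1 and 244) and just missed the threshold (log2 fold change 2.14, SE 0.29, limma adjusted p = 0.0517), and Snord15b overlapped between the groups. The count of 18 was 10, 6 and 8 without trained DG replicates 1, 2 and 3. Leaving out either untrained DG replicate leaves 1 untrained library, so how far the count rests on one of them cannot be judged. Untrained DG replicate 1 was approximated at 3004000 reads and had 20 of 36 Snora and 49 of 74 Snord members at 0. The count was 5 in a fit of all 16 libraries, which tested 72 members and 14673 genes and takes the spread over all groups. What lowered it was not tested.

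Over all 3 subregions, with the subregion as a term, 72 members were tested and 35 were higher in trained libraries, 16 Snora and 19 Snord, with 0 lower. Of the 14673 genes tested, 6.28% were called higher. Of the 72, 14 were under 10 in every untrained library, among them the called Snord61 and Snord87, and the called Snord35b and Snord69 reached 10 in 1 untrained library each. Snora78 had the smallest adjusted p (log2 fold change 1.55, SE 0.17, limma adjusted p = 2.34e-05). Its 9 trained values, 53.9 to 192, all lay above its 7 untrained values, 17.3 to 51.3, which held for no other of the 72 members and for 0.62% of all genes tested. It was followed by Snora23 (0.59, SE 0.10), Snora16a (1.28, SE 0.23), Snora30 (1.57, SE 0.30), Snord67 (1.36, SE 0.25) and Snord118 (1.23, SE 0.23), with limma adjusted p of 0.00105, 0.00114, 0.00181, 0.00185 and 0.00416.

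The combined count moved with single animals and with the sex-linked covariate. It was 13 without trained animal 1, 18 without trained animal 2 or 3 and 7 without untrained animal 1. It was 21 without the library untrained CA3 replicate 1 and 15 without the 2 shallowest libraries, trained CA1 replicate 3 and untrained DG replicate 1. With a covariate made of Y-linked transcripts and Xist, 0 of the 72 members passed and 0 genes of any kind, and 14 members had an unadjusted limma p under 0.05. The log2 fold change of Snora78 was then 1.64 with a wider error (SE 0.42, limma adjusted p = 0.122), and over 20 alternatives it was 1.26 to 1.69. With the number of genes at 0 as a covariate, 33 members passed. In the 9 libraries with few genes at 0, CA1 was all untrained, DG all trained, and the training term rested on 1 trained against 2 untrained CA3 libraries. There 0 of 55 members passed by limma and 1 had an unadjusted p under 0.05, which with 1 trained library says little of the members.

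**Figure D3:**
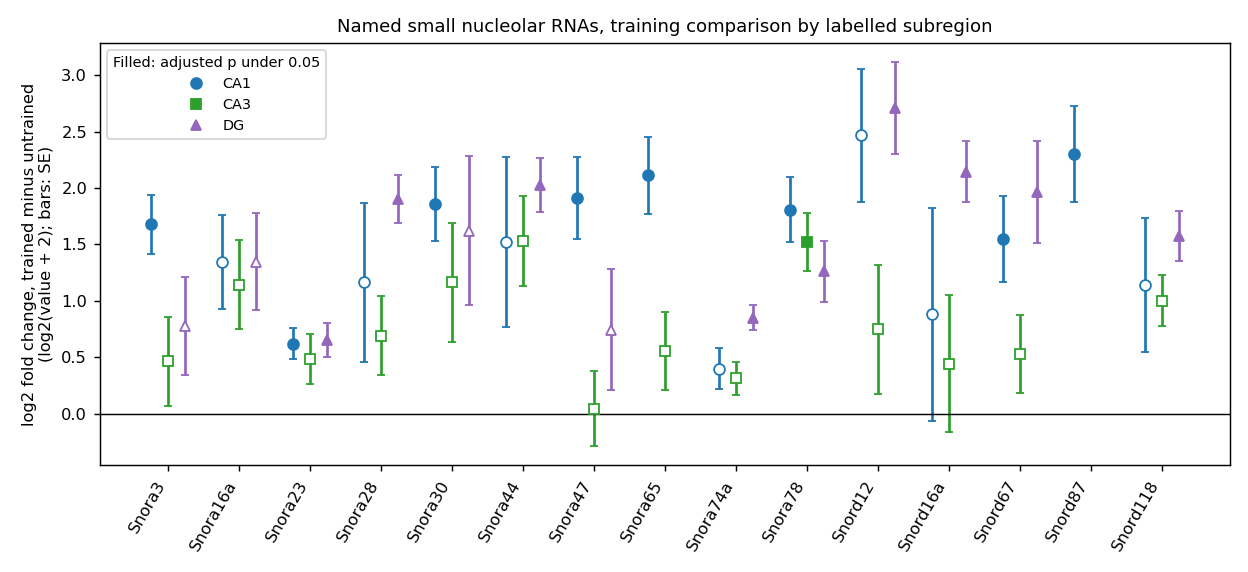
Log2 fold change of trained over untrained libraries on the log2(value + 2) scale for 15 named members in labelled CA1, CA3 and DG (symbols; bars are standard errors), filled where the limma adjusted p is under 0.05. The 15 were drawn because they had the smallest adjusted p among called members, so that their direction follows from that choice. Snora78 is filled in all 3 subregions, at 1.81, 1.52 and 1.26.

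The training difference itself was compared between subregions in one fit of 6 groups. For 0 of 72 members did it differ with a limma adjusted p under 0.05 between CA1 and CA3, between CA1 and DG or between CA3 and DG. Among all genes 0.0273%, 2.75% and 0.164% passed in these contrasts. Unadjusted p-values under 0.05 numbered 12, 9 and 3. Snora47 had the smallest p for CA1 against CA3 (difference 1.87, SE 0.59, limma adjusted p = 0.439), Snord89 for CA1 against DG (1.59, SE 0.48, limma adjusted p = 0.0978) and Snord67 for CA3 against DG (difference -1.43, SE 0.57, limma adjusted p = 0.331). Members called in one subregion and not in another are thus not shown to respond differently.

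The box C/D class was also described by length. A split at 100 bases was chosen after the values were seen, and by GENCODE length it leaves 62 shorter and 11 longer members. The split depends on the annotation. By RefSeq, Snord89 (94 bases), Snord8 (99), Snord67 (98), Snord23 (99), Snord90 (68) and Snord43 (48) of the longer class are under 100. The shorter ones summed to 1906, 2448 and 624 in untrained CA1 and to 8690.4, 3097 and 6851 in trained CA1, whereas the longer ones summed to 6436, 7791 and 2859 and then to 5895, 5580.4 and 4833. The ratio of the shorter to the longer sum was 1.47, 0.555 and 1.42 in trained CA1 and 0.128 to 0.314 in the other 13 libraries. In CA1 the median log2 fold change was 2.19 over 25 shorter members tested, 1.14 over 9 longer ones and 0.999 over 27 Snora members, beside 0.00 over all genes. In DG the medians were 1.498, 1.35 and 1.26, and in CA3 0.44, 0.61 and 0.82. The DG medians include 6 shorter, 1 longer and 5 Snora members that passed the filter only through trained libraries, which favours a positive value. Neither the difference between the length classes nor its difference between subregions was tested. Whether fragment size selection has a part in this was not tested.

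Snord104, of 70 bases, was at 661, 818 and 241 in untrained CA1 and at 2413, 1048 and 2344 in trained CA1. It was at 165 and 445 in untrained and 447, 297 and 352 in trained CA3. Snord12 was at 305, 108 and 237 in trained CA1, and its highest value elsewhere was 60.2. For both, every trained CA1 library was above all others. Snord17, the longest at 238 bases, was at 913, 925 and 869.8 in trained CA1 and at 788, 853 and 659 in untrained CA1. Replicates 1 and 3 of trained CA1 were the highest libraries for many members: of the 52 shorter Snord members above 0 anywhere, 33 had their highest value in trained CA1 replicate 1 and 9 in replicate 3. For Snora it was 26 and 4 of 35, and among all 23503 genes above 0 anywhere 3.95% and 6.67%.

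**Figure D4:**
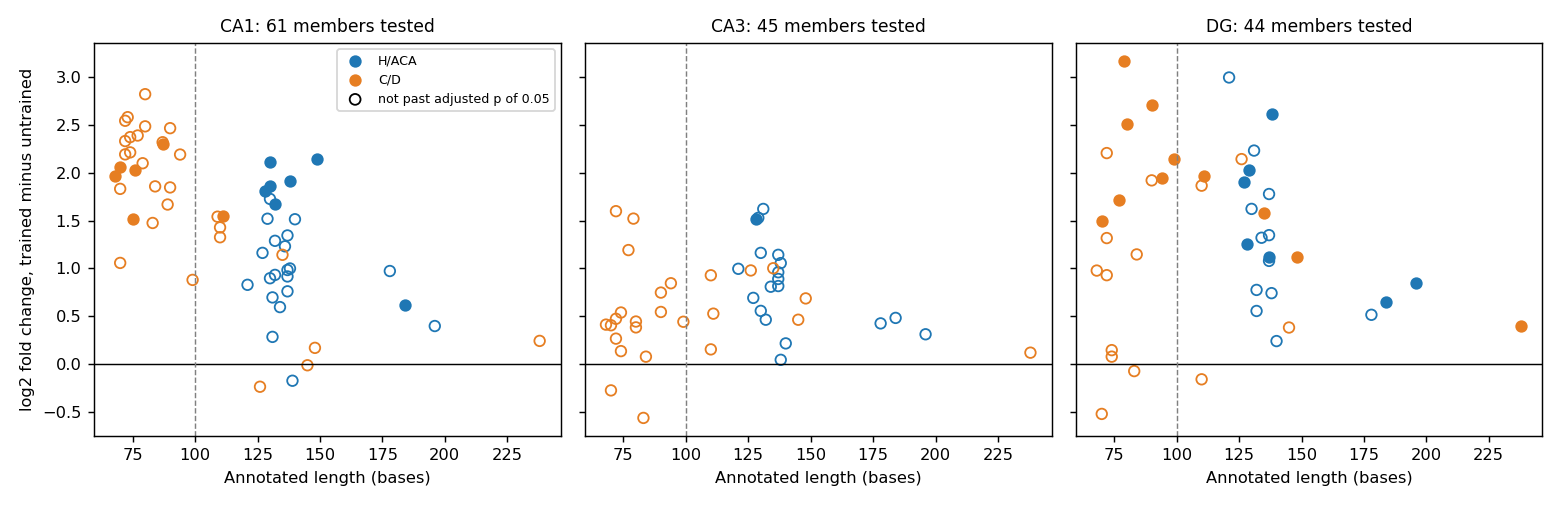
Log2 fold change of trained over untrained libraries against annotated length for the members tested in labelled CA1 (61), CA3 (45) and DG (44), box H/ACA in blue and box C/D in orange, filled where the limma adjusted p is under 0.05; the dashed line marks 100 bases. In CA1 the shorter box C/D members lie at 0.88 to 2.82. The 9 longer ones lie at -0.24 to 1.55 with a median of 1.14, so that the length classes overlap. Among these, Snord22, Snord15b and Snord17, all of 126 bases or more, lie at -0.24, -0.01 and 0.24.

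Subregions were compared with training as a term. Against DG, 37 of 72 members were higher in CA1 and 0 lower (13 Snora and 24 Snord), against 1.12% of the 14673 genes tested called higher in CA1. The summed nuclear RNAs Malat1, Meg3 and Neat1 were at 242211 to 278271 in CA1 and 173699 to 242638 in DG, and the endothelial sum at 476 to 560 and 253 to 504, and their part in this was not tested. Snord67, within Ckap5, was at 34.4, 41.0, 17.5, 148, 84.9 and 56.9 in the 6 CA1 libraries (untrained first) and at 2.97, 5.23, 20.5, 28.3 and 16.7 in the 5 DG libraries, a log2 difference of 2.12 (SE 0.30, limma adjusted p = 0.00262). Snora24, within Snhg8, was at 18.1, 17.8, 4.68, 67.6, 24.2 and 50.6 in CA1 and at 0, 0, 11.4, 0 and 6.32 in DG (log2 difference 2.83, SE 0.45, limma adjusted p = 0.00478). For both, the lowest CA1 library lay within the range of DG.

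Snord110, within the snoRNP gene Nop56, was at 37.5, 42.4, 29.1, 215, 77.3 and 189 in CA1. It was at 14.3, 3.72, 19.4, 18.4 and 13.6 in DG, so that every CA1 library was above every DG library (log2 difference 2.49, SE 0.35, limma adjusted p = 0.00478). Snord35a (2.41, SE 0.41), Snord69 (2.62, SE 0.44) and Snora65 (2.11, SE 0.37) also passed, with limma adjusted p of 0.00713, 0.00743 and 0.00743. Of the 37 members, 10 were under 10 in every DG library. The count was 10, 8 and 21 without trained animals 1, 2 and 3, 18 without untrained animal 1, 10 without the 2 shallowest libraries and 36 with the sex-linked covariate.

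Against CA3, 4 of 72 members were higher in CA1 and 0 lower, where 0.143% of genes were called higher. They were Snora16a (log2 difference 1.36, SE 0.28), Snord111 (2.26, SE 0.46) and Snord1b (2.04, SE 0.40), each with a limma adjusted p of 0.0371, and Snora30 (1.73, SE 0.36), with 0.0385. Snord111 and Snord1b were at most 6.27 and 8.49 in all CA3 and DG libraries, so that these 2 of the 4 calls passed the filter only through CA1. Snora16a lies within Snhg12, and its CA1 values of 19.6, 41.2, 12.04, 80.5, 35.1 and 68.3 stood against 6.05, 10.4, 28.5, 17.5 and 15.9 in CA3. The untrained CA1 libraries overlapped with trained CA3, and the trained CA1 libraries lay above all CA3 libraries. Without untrained animal 3 there were 25 calls, with the animal as a block 15, and with the sex-linked covariate 0 (54 members at an unadjusted limma p under 0.05). Leaving out trained animal 1, 2 or 3 or untrained animal 1 gave 0 calls by limma, with 37, 48, 34 and 49 members at an unadjusted p under 0.05, and leaving out untrained animal 2 gave 2.

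Between CA3 and DG, 0 of 72 members and 0.0% of genes passed by limma, and 7 members had an unadjusted p under 0.05. Snora24 (log2 difference 1.65, SE 0.47), Snora65 (1.22, SE 0.39) and Snord67 (1.01, SE 0.32) had the smallest p, each with a limma adjusted p of 0.945. Their standard errors leave differences of several fold possible, and equal levels in CA3 and DG are not shown.

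The genes that house the snoRNAs were compared in the same fits. In CA1, 45 hosts of 54 tested members were tested, 5 of them were called and 3 of these were higher, beside 710 and 479 of all 13588 genes. Over all members with a tested host the median log2 fold changes of members and hosts were 1.55 and 0.04 in CA1, 0.55 and -0.04 in CA3 and 1.33 and 0.01 in DG. The 12 called members with a tested host had a median log2 fold change of 1.94, and their hosts had one of 0.09 with a range from -0.33 to 0.38. In DG, 14 called members had a median of 1.95 and their hosts one of 0.01, from -0.27 to 0.30. The member's difference was above its host's for 52 of 54 members in CA1, 34 of 40 in CA3 and 36 of 38 in DG. Hosts shared by several members count once in the number of hosts and again for each member in these comparisons.

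Rps3 houses Snord15a and Snord15b and had values of 1336 to 1694 over the 16 libraries. Snord15a rose in DG (63.8 and 112 to 232, 172 and 164, log2 fold change 1.12, SE 0.23, limma adjusted p = 0.0225), where Rps3 rose by 0.26 (SE 0.07, limma adjusted p = 0.0475) and Snord15b had 0.38 (SE 0.47, limma adjusted p = 0.744). The pair of snoRNAs of one host thus differed in whether they passed. The whole sequence of Snord15b also occurred in an annotated Rps3 transcript, so its reads and those of that transcript could not be told apart. No such shared run was found for Snord15a. The part of this in the difference between the pair was not tested. Eif4a2, at 3747 to 4451, houses Snora81, which did not pass in any single subregion, and Snord2, which was at 10.1 or less in every library. Rpl13a houses Snord32a, Snord33, Snord34 and Snord35a, and Rpl13a itself rose in trained CA1 (log2 fold change 0.29, SE 0.05, limma adjusted p = 0.00309). Its 4 snoRNAs had 1.47, 1.86, 1.06 and 1.85 there and did not pass, with limma adjusted p of 0.359, 0.307, 0.383 and 0.069.

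**Figure D5:**
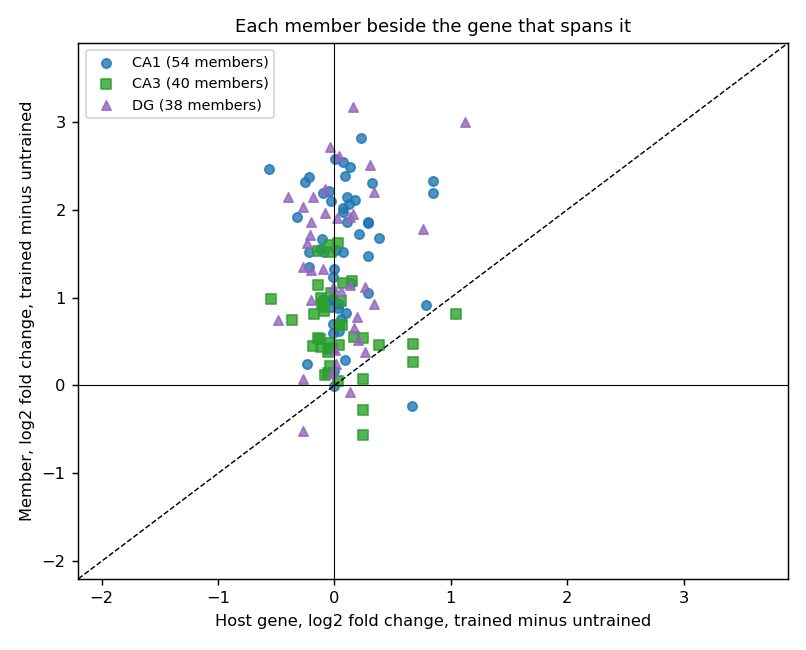
Log2 fold change of each member, trained over untrained, against that of the gene that spans it, for labelled CA1 (54 members), CA3 (40) and DG (38); the dashed line marks equal change. Hosts cluster around 0 while most members lie above the line, 52 of 54 in CA1 and 36 of 38 in DG. Members that passed the low-value filter only through trained libraries were not removed.

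Genes of the proteins that bind snoRNAs had log2 fold changes on both sides of 0 in the same comparisons. Of 27 genes of snoRNP core and assembly proteins that were listed and tested, 0 passed in CA1, CA3 or DG by limma, and in the combined comparison the exosome nuclease gene Dis3 was among 595 of 14673 genes that were lower (log2 fold change -0.39, SE 0.09, limma adjusted p = 0.00871). Fbl had log2 fold changes of -0.02 (CA1), -0.04 (CA3) and -0.13 (DG), and Dkc1 0.18, -0.19 and -0.12. The list ranged from -0.44 to 0.21 in CA1, from -0.29 to 0.30 in CA3 and from -0.41 to 0.64 in DG. Medians over the list were 0.02, -0.02 and -0.12, beside 0.00, -0.01 and 0.00 over all genes. Of 36 rRNA processing proteins, 0 passed in CA1 and CA3, and nucleolin (Ncl, -0.27, SE 0.07, limma adjusted p = 0.0482) and the helicase Ddx21 (-0.46, SE 0.12, limma adjusted p = 0.0489) were lower in trained DG, where 231 of all 13935 genes tested were lower. Of 18 noncoding hosts tested in CA1, Zfas1, the host of Snord12, was lower (-0.56, SE 0.16, limma adjusted p = 0.0418) among 231 of 13588 genes that were, and 0 of the 18 were higher. In CA3, Snhg11 and Meg3 of the same list were higher among 19, against 0.737% of all genes tested, and in DG 0 of 19 passed. Neither Snhg11 nor Meg3 was the host of a member here.

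There were 13 members at 0 in every library, as were 1469 of all 24972 gene rows. They were Snora19, Snord116 with Snord116l1 and Snord116l2, Snord14a, Snord14c, Snord14d, Snord64, Snord1a, Snord4a, Snord43, Snord93 and Snord98. The Snord116 genes and Snord64 belong to the imprinted Prader-Willi locus. In the annotation Snord116l1 and Snord116l2 lie within Snhg14, which was at 2014 to 2873 in every library, and Snord64 within Gm38393, which has no row. The Snord115, Snord113, Snord114 and Snord107 families, Snord3, Snord13 and Snora73 have no row by these symbols. The 3 Snord14 genes, U14, lie within Rps13 and Hspa8, and Snord14c and Snord14d share runs of 31 bases with each other. As members with near-identical copies or with their whole sequence inside a host transcript can lose reads in counting, a listed 0 does not show that the RNA was absent.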

How the data were processed

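Libraries of CA1, CA3 and DG were made from RNA of RIN above 7 with an rRNA depletion kit, although the labels give the molecule as polyA RNA, and snoRNAs have no poly(A) tail. Fragmentation and bead size selection can lose short RNAs. The submitters' processing notes name bcl2fastq 2.20, FastQC, Trim Galore, STAR, DESeq2 and the build GRCm38. The paper's methods also name Salmon. The deposited signal is a normalized estimated count made by the authors. Its values are not whole and whole reads could not be recovered, so the reads per library were approximated from the most frequent step among values under 10.

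A count test had been planned as one possibility. Limma 3.58.1 in R 4.3.3 was used instead on log2(value + 2) of all genes, with trend and robust options, and p-values were adjusted by Benjamini and Hochberg's method over all genes tested. The pseudocount makes fold changes of low genes too small. The low-value filter asked for 10 or more, in 3 or more libraries for CA1 and 2 or more otherwise. A call is an adjusted p-value under 0.05. Nothing in the labels says more of the replicates than the animal number, and p-values measure the spread between these libraries. Libraries of one animal were not treated as paired, since their deviations from group means correlated at -0.108 to 0.092. Limma was checked on simulated data. Members, gene lists, the rule for named genes and the other settings were chosen with earlier results of these data known. Named genes were the 6 highest means of each class, up to 6 calls of smallest adjusted p per direction and comparison (otherwise the 3 of smallest p), the imprinted families, members needed for rRNA precursor cleavage, and the 3 hosts of highest summed value among those with more than 1 member. Other genes named were chosen after their values were seen. Host genes and sequences came from GENCODE M21. The study left out 2 untrained libraries on quality grounds, which are not analysed here, nor are its spatial transcriptomics and RT-qPCR. Alternatives were 2 rescalings, pseudocounts of 0.5 and 10, other filters, no robust estimation, array weights, a replicate block, each animal left out, one fit of all libraries, covariates for genes at 0 and sex-linked transcripts, and subsets of libraries. Leaving out the 2 shallowest libraries was added after seeing the data.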

Additional observations from a re-analysis of the deposited data

How the results depend on the processing

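Median-of-ratios and upper-quartile rescaling kept every count of called members within 1.5 times. For CA1, 26 members were called with no low-value filter, 28 without robust estimation, 21 with all 16 libraries in one fit and 5 when all libraries had to reach 10; leaving out each animal gave 6 to 21. For CA3 the count was 0 without robust estimation, 3 with array weights and 0 to 3 with an animal left out. DG had 5 in the fit of all 16 libraries and 6 to 28 with an animal left out. For the combined comparison it was 10 with at least 10 in every library (20 members tested), 22 with array weights, 0 with the sex-linked covariate, 0 in libraries with few genes at 0, 21 without untrained CA3 replicate 1, 15 without the shallowest libraries and 7 to 36 with an animal left out. For CA1 against CA3 it was 1 and 7 with pseudocounts of 0.5 and 10, 2 with no filter, 0 with at least 10 in every library, 14 without robust estimation, 13 with array weights, 0 with the sex-linked covariate, in libraries with few genes at 0, without untrained CA3 replicate 1 or without the shallowest libraries, and 0 to 25 with an animal left out. For CA1 against DG it was 11 with at least 10 in every library, 0 in libraries with few genes at 0, 10 without the shallowest libraries and 8 to 47 with an animal left out. CA3 against DG had 0 calls by limma throughout, with 1 to 12 members at an unadjusted p under 0.05. The difference of the training effect had 0 calls, and 0 to 4 with an animal left out. Stricter filters and left-out animals test fewer members or libraries; other causes were not tested. Where an animal left out leaves 1 untrained library, its spread is assumed to be that of the other group.

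Using the replicate number as a block within subregions, or the animal as a block in the combined and subregion comparisons, the counts were 15 in CA1, 7 in CA3, 25 in DG, 38 combined, 15 for CA1 against CA3, 39 for CA1 against DG and 0 for CA3 against DG. The pairing has no support in the deviations, and only CA3 and CA1 against CA3 moved by over 1.5 times.

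Of 557 values of named members under an alternative, 486 stayed on their side of the threshold and 69 lost the call. In libraries with few genes at 0, where 1 trained CA3 library stands for training within a subregion, Snord67 changed sign, to -0.0358 in the combined comparison and -0.13 for CA3 against DG. Counting members under 10 instead of at 0 moved the trained minus untrained mean number from -2.0 to -7.33 (Snora) and from -3.0 to -13.3 (Snord) in CA1 and from -0.5 to -4.0 (Snora) in CA3, but from -6.0 to -3.33 (Snord) in CA3 and from -13.2 to -8.33 (Snord) in DG. Without the 3 highest members the log2 difference of the Snord sum went from 0.77 to 1.82 in CA1 and from 0.88 to 1.28 in DG. Depth limits members under about 10, which stand for 3.19 reads in the shallowest library.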

Other observations

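Other short noncoding RNAs varied between the libraries in part like the snoRNAs. The summed value of 5 Rnu genes was 4126, 5033 and 1675 in untrained CA1 and 10341.5, 5489 and 8725 in trained CA1, and Rnu11, the U11 RNA of the minor spliceosome, was called there (log2 fold change 1.66). In the other libraries the sum was 1277 to 3179. The 5 include Rnu73b (U73B), a box C/D snoRNA whose symbol lies outside the rule for members, so this sum is not free of snoRNAs. Rnu73b was called higher in the combined comparison (log2 fold change 1.58 by limma). Vaultrc5, a vault RNA, was at 287, 329.5 and 162 in untrained and 1055, 554.8 and 606 in trained CA1, without overlap. In DG it was at 115 and 70.1 against 181, 186 and 197 and was called (log2 fold change 1.05).

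The 9 Scarna genes, which guide modification of spliceosomal RNAs in Cajal bodies, summed to 1045, 1201 and 564 in untrained and 1041, 904 and 976 in trained CA1, with overlap. In DG they summed to 492 and 488 in untrained and 852, 679 and 822 in trained libraries, without overlap, and 1 of 3 tested, Scarna6, was called (log2 fold change 1.14). In CA3 the sums of 506 and 701 overlapped with 1058, 722 and 684. Rmrp and Rpph1, the RNAs of RNase MRP and RNase P, had values in trained CA1 above those in untrained CA1 in every library. Rpph1 was at 4209, 3992 and 6242 in untrained and at 20747, 14357 and 10825 in trained CA1, without overlap, and it was called in the combined comparison (log2 fold change 1.36 by limma). Its order of libraries differed from that of the snoRNAs. It was at 32363 in trained DG replicate 1 and at 28519 in trained CA3 replicate 1, above all CA1 libraries. Of 1169 rows whose symbol begins with Mir and a number, 1137 to 1160 were at 0 in a library, the fewest in trained CA1 replicate 1 and the most in untrained DG replicate 1.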
